A study of Mus musculus with 19 samples.

Results

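The 86 genes described here encode the proteins of the cytosolic ribosome. They are the protein-coding genes of the GENCODE M21 mouse annotation whose symbols follow the Rpl or Rps pattern, without the Rps6k kinases and without symbols that carry -ps, the mark of a pseudogene. Of the 22028 protein-coding genes in that annotation, 52 belong to the large subunit by this rule and 34 to the small subunit. The pattern also takes Rps19bp1, which encodes a nucleolar protein that binds Rps19 and is not itself a ribosomal subunit, and it leaves out genes such as Fau and Rack1, which encode ribosomal proteins under other names.

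A ribosome is built from 1 copy of nearly every ribosomal protein, joined to ribosomal RNA in a large and a small subunit. Ribosomal protein mRNAs are short and among the most abundant in dividing cells, neural progenitors included, and their start sites commonly lie in a run of pyrimidines, the 5′ terminal oligopyrimidine (TOP) tract, through which mTOR signalling controls their translation. These genes have given rise to many processed pseudogenes, intronless copies inserted elsewhere in the genome, whose sequences can be nearly identical to the mRNA.

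The study sequenced RNA from mouse neural progenitor cells, which were isolated from embryonic cortex and grown in Neurobasal medium with 20 ng/ml FGF2 and 20 ng/ml EGF. Cells were Mettl14 wild type (WT) or Mettl14 conditional knockout (KO). Mettl14 encodes a subunit of the enzyme that writes N6-methyladenosine on mRNA. In Ladder-seq, mRNA is cut by length into 7 bands, which are barcoded apart and then read as 75 bp paired ends. There are 4 WT and 4 KO ladder samples. The comparison libraries were 3 standard WT libraries, made without separation by length and read as 50 bp single ends. Long reads of native RNA and of cDNA are held as 1 assembly per genotype, each pooled from 2 samples, so their values have no error. The embryonic age and the Cre driver are not given in the sources used here. No label says that replicates came from separate cultures or embryos, so the p-values measure only the spread between these samples, which may be technical.

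The ladder libraries held 103.8 to 126.9 M estimated counts (M, mega) and the standard libraries 12.08 to 13.99 M. Mettl14 itself was 20.2 to 28.4 CPM (counts-per-million units) in the WT ladder libraries and 6.13 to 8.07 CPM in the KO ladder libraries, with no overlap between the genotypes (log2 fold change -1.87 ± 0.13, SE, edgeR adjusted p = 5.4e-07). Of the 8 progenitor markers, Fabp7 and Vim averaged 4800 and 1099 TPM (transcripts-per-million units, corrected for length) in the WT ladder libraries, while Sox2 and Pax6 averaged 23.1 and 4.77 TPM. In KO, Fabp7 (log2 change -0.73) and Vim (-0.54) fell and Nes (1.15) rose, the other 5 did not pass, and the 8 summed to 5335 to 6801 TPM in WT and 3762 to 4249 TPM in KO ladder libraries. Neuron markers summed to 14.5 to 18.1 TPM in WT and 4.58 to 7.32 TPM in KO ladder libraries, and 5 of the 5 that could be tested fell in KO. Meningeal fibroblast markers summed to 0.114 to 0.210 TPM in WT and 1.81 to 2.85 TPM in KO, with 4 of the 5 tested higher in KO and Lum under 1 TPM in every library. Of 6 astrocyte markers 5 were higher and 1 lower in KO, of 6 oligodendrocyte lineage markers 2 were higher and 4 lower, and 5 of 6 microglia markers were under 1 TPM in every library. Of 4 endothelial and mural markers tested 3 were higher and 1 lower in KO, with all 6 on that list summing to at most 2.21 TPM in any ladder library. In such bulk samples, fewer cells of a type and less RNA per cell cannot be told apart. Counts on genes annotated as ribosomal RNA, those of the mitochondrial genome included, were 7.02% ± 1.97 (SD, n = 4) of the WT and 2.78% ± 0.223 (SD, n = 4) of the KO ladder libraries. The part of these differences in the results that follow was not tested.

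Promoter windows show the start sites of the most abundant members. RefSeq windows on GRCm38.p6 were found for 66 of the 86 genes. Printed here are 6 from among those of highest WT ladder level, not a strict ranking. Each runs from 10 bases before to 20 bases from the annotated start onward, with the longest run of pyrimidines in capitals.
Rpl13a, chr7:45128726-45128755, minus strand: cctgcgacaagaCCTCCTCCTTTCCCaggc
Rpl41, chr10:128549149-128549178, minus strand: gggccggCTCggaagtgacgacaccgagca
Rps18, chr17:33955646-33955675, minus strand: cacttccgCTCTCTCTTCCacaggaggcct
Rps24, chr14:24490743-24490772, plus strand: cgccgtagccatcatggtgagTCTCCTCgg
Rps15, chr10:80292421-80292450, plus strand: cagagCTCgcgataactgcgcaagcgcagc
Rps27, chr3:90213629-90213658, minus strand: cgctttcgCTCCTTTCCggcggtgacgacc

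Rpl13a, Rps18 and Rps27 carried runs of 14, 11 and 9 pyrimidines at the start. The RefSeq starts lay 3 to 137 bases from the start of the main GENCODE transcript, the farthest being that of Rpl41, so a short run in this window says only that these letters are not there. The letters CTTTCC, on the sense strand within 20 bases of the start, were found in 11 of the 66 member promoters (16.7%) and in 1.95% of the 32851 promoters in the table. Runs of 8 or more pyrimidines in the same stretch were in 42.4% of member promoters and 16.05% of all. CCGGAA, the core of a site for ETS-family factors, was on either strand of the 300-base window in 33 of the 66 (50.0%) against 14.9% of all promoters, and AAGATGG, the core of a YY1 site, in 9 (13.6%) against 6.34%.

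Most members were expressed at a high and narrow range of levels. In the WT ladder libraries 56 of the 86 genes averaged 1000 TPM or more, 16 lay between 100 and 1000 TPM, 10 between 1 and 100 TPM, and 4 under 1 TPM. The highest large subunit genes were Rpl13a at 4385 ± 629 TPM (SD, n = 4), Rpl41 at 4136 ± 708 TPM, Rpl23a at 4021 ± 464 TPM and Rplp1, a protein of the ribosomal stalk, at 3397 ± 708 TPM. These 4 did not differ from their neighbours in the order by more than the spread between libraries. High small subunit genes were Rps18 at 3019 ± 567 TPM, Rps24 at 2992 ± 222 TPM and Rps15 at 2812 ± 584 TPM, again within each other's spread. All levels compared between genes here are TPM, which is corrected for transcript length.

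**Figure D1:**
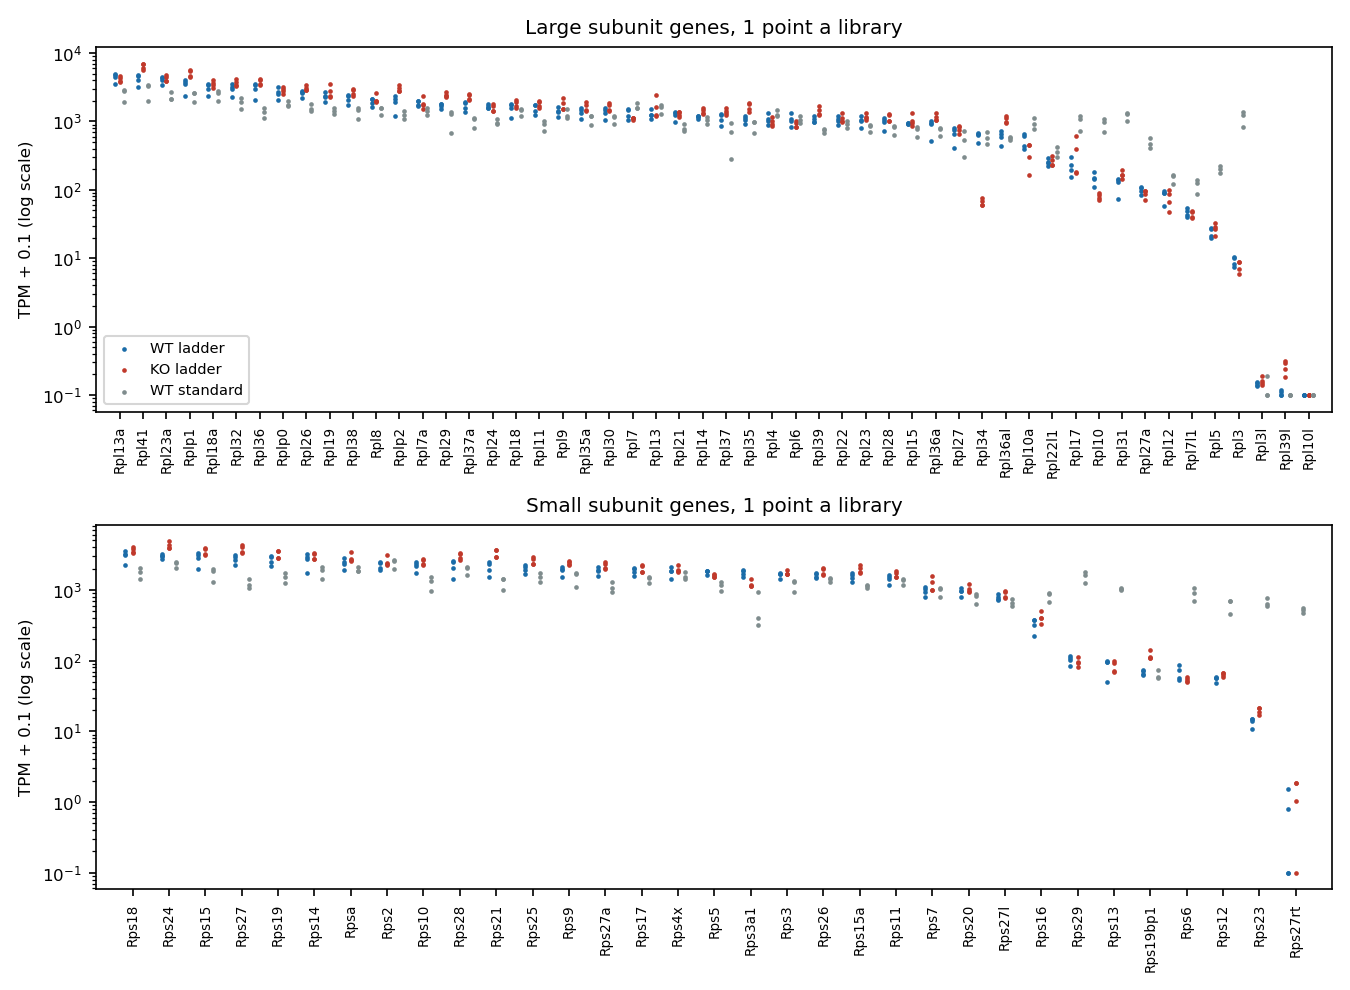
TPM of 85 of the 86 members in every short-read library, on a log axis with 0.1 added, ordered by the mean of the 4 WT ladder libraries; blue, red and grey points are WT ladder, KO ladder and WT standard libraries. Most members lie near 1000 TPM or above in all 3 groups, and a tail at the right of each panel lies far lower in the ladder than in the standard libraries.

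At the low end were 3 members known from other tissues. Rpl10l, a retrogene of Rpl10 known from testis, had 0 counts in all 11 short-read libraries. Rpl39l, a testis form of Rpl39, had 0 to 1 counts in the WT ladder libraries and 4 to 13 counts in the KO ladder libraries, under 0.22 TPM throughout. Rpl3l, the striated muscle form of Rpl3, was under 0.091 TPM in every library. These 3 large subunit genes did not pass the filter on low counts, and the other 83 members did, 49 of the large and 34 of the small subunit.

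The paralogs that are expressed stood below their partners. Rpl22l1 averaged 252 ± 30.4 TPM in the WT ladder libraries and its partner Rpl22 1040 ± 126 TPM, while native long reads gave 820 and 1440 TPM. Rps27l, a p53 target, averaged 782 ± 67.3 TPM against 2724 ± 364 TPM for Rps27. Rpl7l1, which acts in large subunit assembly, averaged 46.2 ± 6.14 TPM against 1313 ± 237 TPM for Rpl7. Rpl36al, an intron-poor relative of the X-linked Rpl36a, averaged 604 ± 118 TPM against 849 ± 227 TPM, values whose spreads overlap. Rps4x, the X-linked form of Rps4, averaged 1797 ± 262 TPM.

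Summed over members, the large subunit genes took 4.27% ± 0.503 of the estimated counts in WT ladder libraries, 4.68% ± 0.686 in KO ladder libraries (SD, n = 4 each) and 1.90% ± 0.250 in standard libraries (SD, n = 3). Small subunit genes took 3.24% ± 0.331, 3.58% ± 0.534 and 1.35% ± 0.187. By library the total ran from 6.63% to 8.61% (WT ladder), from 7.17% to 9.996% (KO ladder) and from 2.74% to 3.51% (standard), so on counts the genotypes overlapped and the library types did not. On TPM the library types overlapped as well, at 10.3% to 13.6% of the total in WT ladder and 8.43% to 11.04% in standard libraries. The ratio of summed large to summed small subunit TPM was 1.33 ± 0.0163, 1.32 ± 0.0127 and 1.31 ± 0.0147 in the same order.

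Members rose and fell together from library to library. KO ladder replicate 4 held the highest KO level for 78 of the 83 tested members and KO ladder replicate 2 the lowest for 61, and WT ladder replicate 3 held the highest WT level for 67. The median coefficient of variation of a member's TPM within a group was 14.6% among WT ladder, 11.4% among KO ladder and 15.8% among standard libraries.

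The KO and WT ladder libraries were compared to ask how these mRNAs stood in Mettl14 knockout cells. Most members differed little: 72 of the 83 lay within 0.5 of 0 on the log2 scale, where 53.4% of all 18687 tested genes did. The median log2 fold change was 0.15 for the large and 0.15 for the small subunit, against -0.03 for all genes. With edgeR's quasi-likelihood test and Benjamini-Hochberg adjustment over all genes, at adjusted p under 0.05, 11 members rose and 5 fell. That is 16 of 83 members, or 19.3%, where 53.6% of all genes were called, 26.4% higher and 27.2% lower. By subunit, as set by the symbol, 7 large subunit genes rose and 4 fell, and 4 small subunit genes rose and 1 fell. Those 4 rises include Rps19bp1, which is not itself a ribosomal subunit. The libraries of the 2 genotypes did not overlap for 4 members that were higher and 6 that were lower in KO, where 25.5% and 23.5% of all genes did not (49% in either direction). These counts rest on few libraries: without KO ladder replicate 4, 2 large and 2 small subunit genes rose and the medians were -0.02 and 0.03, while without WT ladder replicate 3, 12 and 6 rose and the medians were 0.29 and 0.26.

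**Figure D2:**
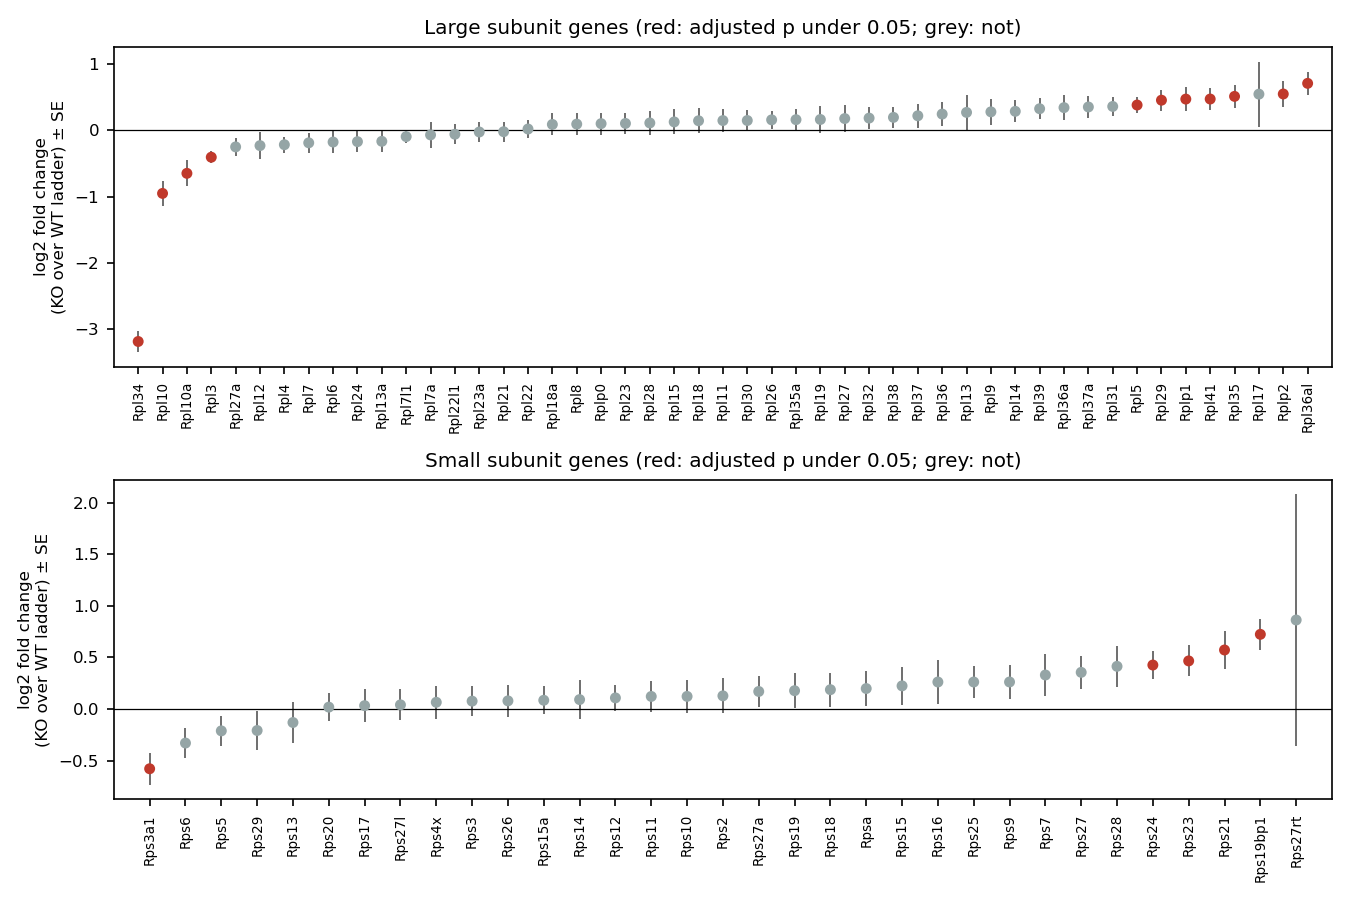
log2 fold change, KO over WT ladder libraries, with its standard error, for 49 large and 33 small subunit genes; red points passed an adjusted p of 0.05 and grey points did not. Most genes sit between 0 and 0.5, and Rpl34 lies apart at -3.18.

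Rpl34, a large subunit gene at chr3:130726831-130730398, had the largest fall. Its WT ladder libraries held 221, 237, 320 and 255 CPM and its KO ladder libraries 27.6, 23.6, 28.6 and 34.2 CPM. No KO library came near a WT library, and the log2 fold change was -3.18 with a standard error of 0.16 (edgeR adjusted p = 4.4e-08). Native long reads gave 167 TPM in WT and 56.1 TPM in KO. Its processed pseudogene Rpl34-ps1 on chromosome 6, 99.4% identical to the mRNA, averaged 258 TPM in WT and 417 TPM in KO ladder libraries, and with such near-identical copies added to the gene the log2 fold change was -1.38. Rpl34 lies 7.34 Mb from the end of Mettl14 on the same chromosome, which also holds Rps3a1, Rps27 and Rpl22l1.

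The other falls were smaller. Rpl10, an X-linked protein near the peptidyl transferase centre, held 168, 114, 103 and 110 CPM in WT and 70.3, 55.2, 49.1 and 81.5 CPM in KO ladder libraries, a log2 change of -0.95 ± 0.19 (SE, adjusted p = 0.0014). All 4 KO libraries were below all 4 WT libraries. With the counts of Rpl10-ps3 and other named pseudogenes added, the change was -0.10 (adjusted p = 0.60). The 2 genotypes also differ in sex-linked genes. Eif2s3y on chromosome Y was at most 0.0207 TPM in WT and 1.93 to 2.79 TPM in KO ladder libraries. Ddx3y, Kdm5d and Uty on chromosome Y were likewise higher in every KO than in any WT ladder library. Xist was 5.92 to 9.69 TPM in WT and 1.97 to 2.93 TPM in KO ladder libraries. This difference goes with genotype in all ladder libraries, so the 2 cannot be told apart for any member. Its part in the members' values, the 4 X-linked members included, was not tested.

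Rps3a1, a small subunit protein on chromosome 3, held 1921, 1813, 1793 and 1773 CPM in WT and 1190, 1087, 983 and 1627 CPM in KO ladder libraries. The groups did not overlap, with KO replicate 4 closest to WT, and the log2 change was -0.58 ± 0.16 (SE, adjusted p = 0.0084). Its processed copies Rps3a2 and Rps3a3 averaged 166 and 77.6 TPM in WT and 252 and 235 TPM in KO ladder libraries, and the change with copies added was -0.35. Native long reads gave 237 and 295 TPM, the other direction.

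Rpl10a held 248, 314, 265 and 342 CPM in WT and 241, 225, 146 and 135 CPM in KO ladder libraries, with the highest KO library just under the lowest WT library (log2 change -0.65 ± 0.20, SE, adjusted p = 0.016). The Rpl10a call was lost on TPM (adjusted p = 0.083) and over the transcripts shared with the standard libraries (-0.21, adjusted p = 0.38). Rpl3, whose product shapes the active site of the large subunit, held 12.7, 13.9, 13.9 and 13.9 CPM in WT and 9.57, 10.98, 10.9 and 9.71 CPM in KO ladder libraries (log2 change -0.40 ± 0.09, SE, adjusted p = 0.0035). The Rpl3 call was lost on coding transcripts alone (-0.22, adjusted p = 0.49), on TPM (-0.24, adjusted p = 0.27), and with named pseudogenes (-1.74, adjusted p = 0.35) or copies (-1.73, adjusted p = 0.34) added. These Rpl3 values are far below its standard library level, described later, and most come from transcripts other than the coding mRNA.

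Of the rises, 4 had no overlap between genotypes. Rpl36al held 226, 254, 372 and 289 CPM in WT and 444, 393, 466 and 564 CPM in KO ladder libraries, so that even the lowest KO library exceeded the highest WT library. Its log2 change was 0.71 ± 0.17 (SE, adjusted p = 0.0040), and native long reads gave 449 TPM in WT and 1004 TPM in KO. Its partner Rpl36a did not pass the test (log2 change 0.34, adjusted p = 0.15); the difference between the paralogs was not tested.

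Rps19bp1, the gene that is not a ribosomal subunit, held 59.8, 55.9, 59.8 and 58.4 CPM in WT and 94.6, 84.4, 76.5 and 131 CPM in KO ladder libraries. The WT libraries lay close together and every KO library was above them (log2 change 0.72 ± 0.15, SE, adjusted p = 0.0019). Native long reads gave 84.9 and 149 TPM, and cDNA long reads 6.44 and 12.2 TPM, both higher in KO.

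Rps23, a protein of the decoding centre, held 9.78, 12.2, 14.9 and 11.7 CPM in WT and 14.9, 14.99, 16.1 and 21.1 CPM in KO ladder libraries (log2 change 0.47 ± 0.15, SE, adjusted p = 0.021). That call was lost without KO ladder replicate 4 (adjusted p = 0.060) and without WT ladder replicate 1 (0.062) or 4 (0.082). Of 20 alternative runs for Rps23, 5 lost the call. Its pseudogene Rps23-ps1, with a transcript 100% identical over the stretch aligned, averaged 717 TPM in WT and 1215 TPM in KO ladder libraries. With near-identical copies added the log2 change was 0.67 (edgeR adjusted p = 0.027). Rpl5, which binds 5S ribosomal RNA and, when free, MDM2, held 36.4, 41.2, 40.4 and 44.6 CPM in WT and 59.1, 59.7, 45.8 and 47.5 CPM in KO ladder libraries (log2 change 0.38 ± 0.12, SE, adjusted p = 0.018). The Rpl5 call did not survive the addition of its near-identical copies, under which the change was -0.30 (adjusted p = 0.085), or the omission of KO ladder replicate 1 (adjusted p = 0.055) or 2 (0.063) or WT ladder replicate 1 (0.061). On TPM it was lost as well (log2 change 0.20, limma adjusted p = 0.35). Of 20 alternative runs for Rpl5, 5 lost the call and 1 changed its direction.

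The 7 other rises had log2 changes between 0.43 and 0.57 with overlapping libraries: Rps21, the stalk genes Rplp1 and Rplp2, Rpl35, Rpl41, Rpl29 and Rps24. Rps21, for example, held 501 to 808 CPM in WT and 740 to 1190 CPM in KO ladder libraries, so 1 WT library exceeded the lowest KO library. Of 20 alternative runs each, the call was lost in 10 for Rplp1, 8 for Rpl41, 6 for Rps24 and 5 for Rps21. On coding transcripts alone Rps21 and Rps24 passed. Rplp1 (edgeR adjusted p = 0.074), Rplp2 (0.068), Rpl41 (0.058), Rpl29 (0.058) and Rpl35 (0.36) did not. Among the 67 members that did not pass, changes ran from -0.33 for Rps6 to 0.55 for Rpl17, apart from Rps27rt, which is near 0 in both groups. Rps6, the substrate of the S6 kinases, changed side when copies were added: its pseudogene Rps6-ps4 averaged 0.794 TPM in WT and 170 TPM in KO ladder libraries, and the summed log2 change was 1.50 (adjusted p = 0.00097). Of the 16 called members, 14 were called in the same direction with near-identical copies added, and 13 with the test run on the authors' TPM.

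**Figure D3:**
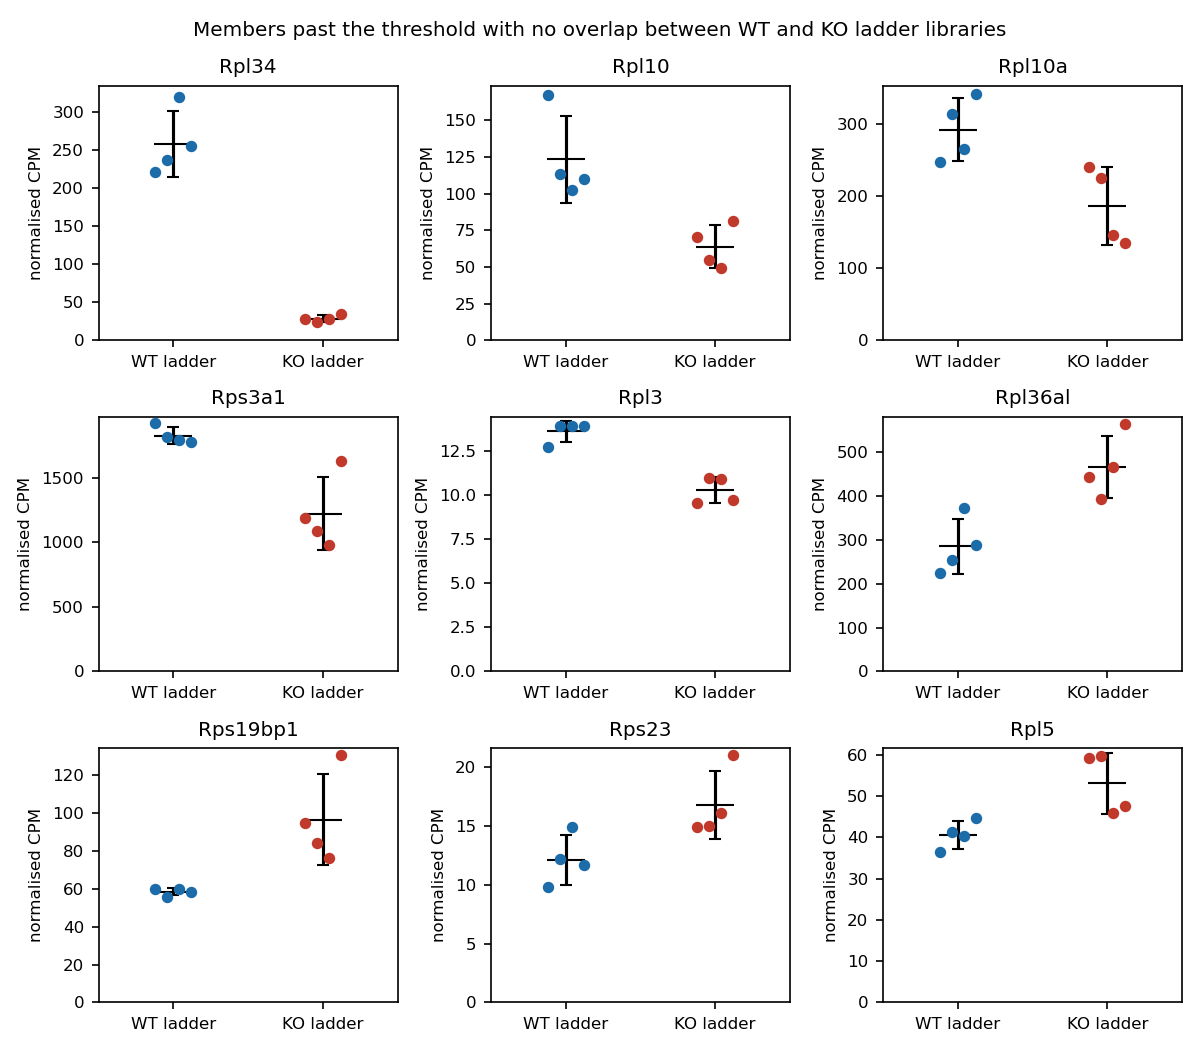
Normalised CPM in each of the 4 WT (blue) and 4 KO (red) ladder libraries for the 9 called members whose groups did not overlap; black bars are the mean and SD, and every axis starts at 0. Rpl34 falls from 221 or more to 34.2 or less, while Rps19bp1 and Rpl36al stand higher in all 4 KO libraries.

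GGACT, the commonest core of an N6-methyladenosine site, occurs in the main coding transcript of 42 of the 86 members (48.8%), at 0.86 per kb, against 57.1% of other protein-coding transcripts of up to 1200 bases, at 1.15 per kb. The 40 tested members with the letters had a median log2 change in KO of 0.10, with 5 rises and 2 falls, and the 43 without had 0.18, with 6 rises and 3 falls. The letters alone do not mark a methylated site.

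Transcript usage within members was compared between KO and WT ladder libraries with edgeR's diffSpliceDGE and Simes-adjusted p-values. Of 78 members with more than 1 testable transcript, 11 were called (14.1%), where 19.6% of all 10532 genes were. In simulated data of 10389 genes, with 200 changed, the test also called 47 genes that were not changed. In 4 of the 11 a transcript's share of the gene's TPM moved by 10 percentage points or more. In Rpl34 the 480-base transcript Rpl34-202 made up 94.0 to 95.9% of the gene in WT and 61.3 to 67.2% in KO ladder libraries, while the 624-base Rpl34-201 rose from 3.1 to 4.6% up to 24.0 to 28.5% (adjusted p = 1.0e-10). Native long reads with the introns of Rpl34-202 gave 132 TPM in WT and 9.40 TPM in KO, and those with the introns of Rpl34-201 gave 35.2 and 43.8 TPM. In the ladder libraries Rpl34-202 averaged 576 TPM in WT and 42.3 TPM in KO, and Rpl34-201 averaged 25.2 and 16.9 TPM.

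In Rpl10 the 855-base Rpl10-202 went from 46.3% ± 6.2 to 32.1% ± 3.0 of the gene (SD, n = 4 each, adjusted p = 1.0e-05). In Rpl5 the coding transcript Rpl5-201 went from 54.9% ± 6.0 to 76.9% ± 1.4 (adjusted p = 0.035), and 3 retained-intron transcripts had lower shares. In Rps26 the 596-base Rps26-202, annotated as a retained-intron form, made up 8.8 to 20.1% in WT and 23.8 to 30.8% in KO ladder libraries (adjusted p = 0.023). The other named calls were smaller: Rpl6-201 went from 87.4% to 96.9%, Rps6-201 from 87.0% to 92.7%, and Rpl7-201 from 2.7% to 11.3%, while no Rps24 transcript moved by 1 percentage point.

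The WT ladder and WT standard libraries were compared to ask how these mRNAs are measured with and without separation by length. This comparison shares its WT ladder libraries with that of the genotypes. On counts over the 105848 transcripts that all files share, 66 of the 83 tested members were higher in the ladder libraries and 12 were lower. That is 94.0% called, where 61.1% of all 16131 genes were called, 30.8% higher and 30.3% lower. Of the large subunit, 39 genes were higher and 6 lower, with a median log2 fold change of 1.91; of the small subunit, 27 were higher and 6 lower, with a median of 2.03, against 0.00 for all genes. Groups did not overlap for 66 members that were higher and 13 that were lower in the ladder, where 32.2% and 29.8% of all genes did not (62% in either direction). The library types differ in separation, read length, pairing, sequencer and transcript set at once, so these cannot be told apart. Marker levels also differed between them. Endothelial and mural markers summed to 1.01 to 1.56 TPM in WT ladder and 628 to 1557 TPM in standard libraries, mostly Pecam1 (0.248 and 931 TPM). Neuron markers summed to 14.5 to 18.1 and 39.7 to 769 TPM. In the edgeR test on counts, 4 of 6 astrocyte markers were higher and 1 lower in the ladder. Of 6 oligodendrocyte lineage markers 4 were higher and 0 lower. A difference in the cells and one in the measurement cannot be told apart here. Xist was 5.92 to 9.69 TPM in WT ladder libraries and 0 in the standard libraries, while Kdm5d on chromosome Y was at most 0.0479 TPM and at least 0.361 TPM. Uty on chromosome Y was at most 0.0343 TPM in WT ladder and 0.0998 to 0.316 TPM in standard libraries. The Y-linked Eif2s3y, however, was 0 in every standard library, and Ddx3y ran from 0 to 0.228 TPM there. The part of these in the members' values was not tested. On the authors' TPM, where the median of all genes was -1.11, the medians were 0.32 and 0.33, and 15 large and 12 small subunit genes passed as higher.

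The size of this difference went with transcript length in all genes. Other protein-coding genes whose main coding transcript was up to 600 bases had a median log2 change of 1.62, those over 600 and up to 1200 bases 1.63, those over 1200 and up to 2400 bases 0.43, and those over 4800 bases -0.63. The 35 members of up to 600 bases had a median of 2.08 and the 38 over 600 and up to 1200 bases 1.93. Members are short as a set, with a median of 669 bases and 75 of 86 at 1200 bases or under, where the median of all protein-coding genes was 2493 bases.

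**Figure D4:**
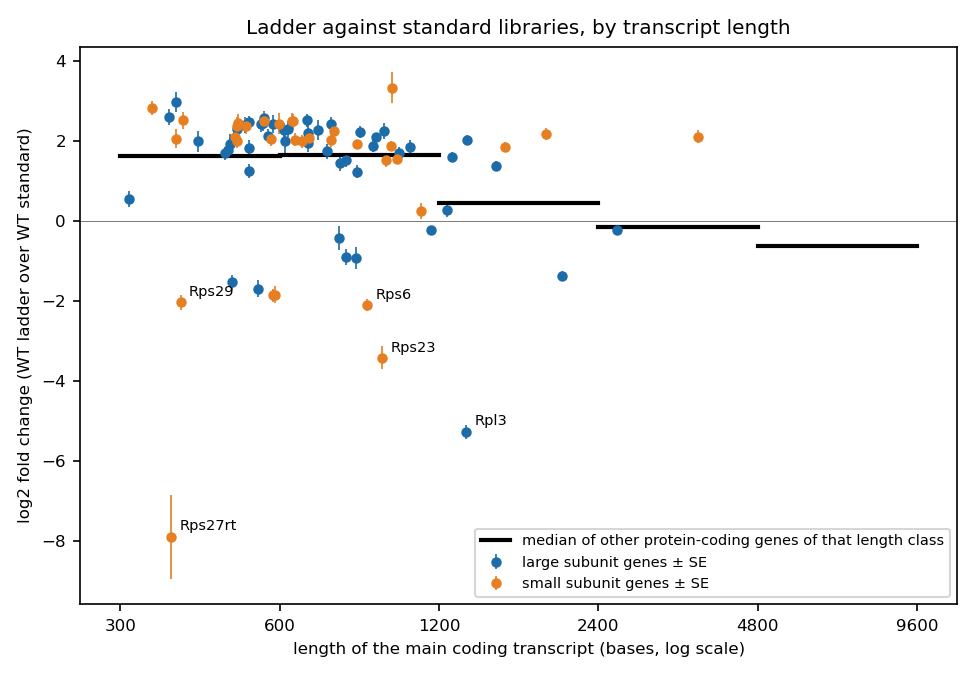
log2 fold change, WT ladder over WT standard libraries, with its standard error, against the length of each member's main coding transcript on a log axis; black lines are medians of the other protein-coding genes in each length class. Most members lie a little above the line of their class, and the 12 members called lower are among those below 0.

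The largest rise was that of Rps3a1, at 2711, 2606, 2649 and 2488 CPM in the ladder and 158, 178 and 446 CPM in the standard libraries (log2 change 3.32 ± 0.39, SE, adjusted p = 0.00017). With its copies Rps3a2 and Rps3a3, at 868 and 493 TPM in standard libraries, and other near-identical copies added, it was 1.95, below the 2.95 of Rpl36. Rpl36 held 898, 1096, 1657 and 1271 CPM in the ladder and 133, 163 and 176 CPM in the standard libraries (log2 change 2.97 ± 0.24, adjusted p = 2.5e-05). The ladder libraries were higher without exception in both. Rps27, Rpl38, Rpl23a, Rps21, Rpl24 and Rps19 followed, with log2 changes between 2.505 and 2.82.

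The 12 members that went the other way ranged from under 2-fold lower to nearly absent in the ladder. Rpl3 held 17.9, 19.9, 20.4 and 19.4 CPM in the ladder and 603, 727 and 923 CPM in the standard libraries, a log2 change of -5.27 ± 0.18 (SE, adjusted p = 9.0e-07). Rps23 held 11.6, 15.6, 19.5 and 14.3 CPM in the ladder and 120, 243 and 131 CPM in the standard libraries (log2 change -3.43 ± 0.29, adjusted p = 3.3e-05). Rps6 (-2.12), Rps29 (-2.04), Rps12 (-1.87), Rps13 (-1.86), Rpl10a (-1.70), Rpl31 (-1.54), Rpl5 (-1.38), Rpl37 (-0.94) and Rpl10 (-0.91) were lower by less on the same log2 scale. Rpl37 did not pass without standard replicate 2 (-0.74, edgeR adjusted p = 0.082) or with copies added (-0.22, adjusted p = 0.56). All 12 were lower against standard replicate 2 alone, whose transcript set differs from that of the other standard libraries, and all 12 without it.

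Rps27rt, a single-exon retrogene of Rps27 at chr9:114982366-114982739, was the most extreme, at 0, 0.25, 0.63 and 0 CPM in the ladder and 58.1, 56.5 and 49.5 CPM in the standard libraries (log2 change -7.90 ± 1.05, adjusted p = 0.00036). Its parent Rps27 was 2724 ± 364 TPM in the ladder and 1219 ± 194 TPM in the standard libraries (SD, n = 4 and 3), with Rps27rt at 514 TPM in the latter. Native long reads at the Rps27rt locus gave 2346 TPM in WT by exon overlap, and those with the introns of Rps27 gave 636 TPM.

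For 6 of the 12, the direction changed when the counts of copies or named pseudogenes were added. Rps23-ps1, a processed pseudogene on chromosome 3 with a transcript 100% identical to Rps23 over the stretch aligned, averaged 717 TPM in WT ladder libraries, where Rps23 itself averaged 13.7 TPM. With near-identical copies added, the ladder and standard libraries gave a log2 change of 0.13 for Rps23, 1.78 for Rpl5, 1.47 for Rpl10a and 0.57 for Rpl31. Rpl5 averaged 23.6 TPM beside 1597 TPM for the pseudogene Gm15500 on chromosome 7, and Rpl10a 523 TPM beside 961 TPM for Rpl10a-ps1 on chromosome 1. For Rps12 and Rpl10 the copies were Rps12-ps3 and Rpl10-ps3, which the annotation types as protein-coding and the -ps mark kept out of the members. Rps12-ps3 averaged 3397 TPM and Rpl10-ps3 1186 TPM in WT ladder libraries, and with named pseudogenes added the log2 changes were 2.31 for Rps12 and 1.69 for Rpl10. Rpl12, which overlapped between the library types, averaged 82.6 TPM in WT ladder libraries beside 1665 TPM for its copy Gm10275 on chromosome 10.

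Rpl3, Rps6, Rps13, Rps29 and Rps27rt were still lower in the ladder libraries with copies added, by -1.42, -2.73, -1.95, -2.03 and -6.84 on the log2 scale, although Rpl3 no longer passed the test (adjusted p = 0.11). For Rpl37 the value turned on the transcript set, since over all annotated transcripts of each file the change was 2.36. Between 11.9% and 13.4% of ladder counts went to transcripts assembled by the authors that carry no gene name in these files, and none of the standard counts did; whether they hold reads of these members was not tested. Across all members, 81 of 86 had near-identical copies, 1112 in all, with a median of 9 a gene and 90 for Rpl7a. Most were hardly detected: by group means, 923 were under 1 TPM in every short-read group and 47 reached 10 TPM in any.

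For 3 members of low ladder level the ladder reads that remained lay on transcripts other than the mRNA. In Rpl3 the coding transcript Rpl3-201 made up 88.3% ± 5.6 of the gene's TPM in standard libraries (SD, n = 3) and 10.8% ± 4.6 in WT ladder libraries (SD, n = 4), where a retained-intron form, Rpl3-204, held 32.3% and a form subject to nonsense-mediated decay, Rpl3-205, held 29.9%. In Rps12 the coding Rps12-203 went from 91.8% to 9.1%, with the nonsense-mediated decay form Rps12-204 at 62.6% in the ladder libraries. In Rpl12 the coding Rpl12-203 went from 63.2% to 7.0%. Native long reads put nearly all of these genes on the coding form, with 90.9 of 96.4 TPM on Rpl3-201, 824 of 876 TPM on Rps12-203 and 1362 of 1414 TPM on Rpl12-203. Over all members together, coding transcripts held 85.2% ± 0.720 of the TPM in WT ladder libraries and 86.8% ± 0.762 in standard libraries.

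Other members were split differently among their transcripts. Rps24 has forms that differ in short exons near the end of the gene. The 519-base, 6-exon Rps24-202 made up 97.5 to 98.6% of the gene in WT ladder libraries, but 45.6%, 19.4% and 43.8% in the 3 standard libraries, where the 468-base, 5-exon Rps24-201 held 37.7%, 80.6% and 36.3%. All 3971 TPM of Rps24 in native WT long reads had the introns of Rps24-202. In Rps26 the order was the other way: Rps26-202 held 14.4% ± 4.7 in WT ladder and 71.2% ± 0.35 in standard libraries, and 77.1% in native WT long reads.

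Native RNA long reads gave levels in the same range as the short reads. In WT the median over members was 1542 TPM, against 1378 TPM in ladder and 1112 TPM in standard libraries, and members took 14.7% of the native TPM. In the cDNA assembly the median was 34.7 TPM and the share 0.493%. Both shares were taken over the nominal TPM total. The transcripts of the cDNA WT assembly summed to 840938 TPM and those of the native WT assembly to 999529 TPM. The cDNA share of its own sum is therefore somewhat higher. Across the 86 genes, Spearman's rho with native WT TPM was 0.66 for ladder and 0.66 for standard TPM. These points share the annotation, the short transcripts and 3 genes near 0, so rho is given as a description only. Without the 12 members lower in the ladder it was 0.62 for ladder and 0.70 for standard TPM.

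**Figure D5:**
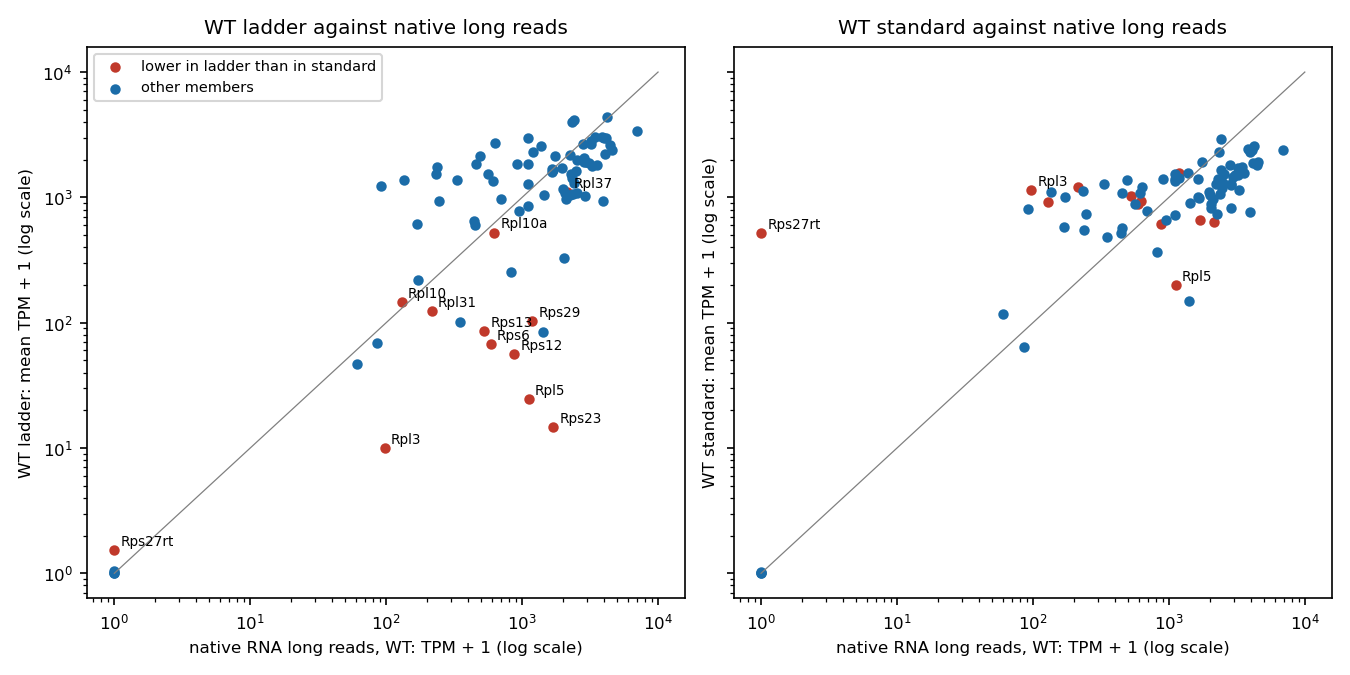
Mean TPM + 1 of each member in WT ladder (left) and WT standard libraries (right) against its TPM + 1 in the native WT long-read assembly, both on log axes; red points are the 12 members lower in ladder than in standard libraries and the grey line marks equal values. Rps23, Rpl5, Rps12 and Rpl3 lie far below the line in the left panel, and Rpl3 lies above it in the right panel.

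The largest differences in rank between ladder and native reads ran both ways. Rps20 ranked lower in the ladder, at 940 ± 104 TPM (SD, n = 4), than in native reads at 3947 TPM; in the ladder 85.8% of its TPM lay on the retained-intron form Rps20-201 (91.2% in standard libraries), while all native reads had the introns of the coding Rps20-203. Rps23 at 13.7 against 1683 TPM and Rpl23 at 1017 against 2886 TPM went the same way. Rps27 at 2724 against 636 TPM, Rpl38 at 2153 against 489 TPM, Rpl36 at 2986 against 1105 TPM, Rps3a1 at 1743 against 237 TPM and Rpl35a at 1368 against 134 TPM ranked higher in the ladder. No error can be set on the native values.

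Between genotypes, 5 of the 82 members with native reads lay more than 2-fold apart, where 35.8% of 11218 genes did. Rpl3 (96.4 and 867 TPM in WT and KO), Rps15a (231 and 3228 TPM) and Rpl36al were higher in KO, and Rpl34 and Rpl11 (560 and 269 TPM) lower. Rps15a and Rpl11 did not pass the test in the ladder libraries, with log2 changes of 0.09 and 0.15. In the cDNA assemblies 21 of 82 lay more than 2-fold apart, where 32.5% of 8673 genes did. Of the 21 members 15 were higher in KO, but all genes leaned that way. The median log2 change in cDNA was 0.23 for the 82 members and 0.28 for all genes. In cDNA Rpl34 went from 1.27 to 3.58 TPM, against its direction in the native and ladder data.

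Genes that act with the ribosomal proteins are given by list, beside the 26.4% of all genes called higher and 27.2% called lower in KO. Neither Fau nor Rack1 passed the test in KO, with log2 changes of -0.07 and -0.13, and both were higher in ladder than in standard libraries. Of 45 ribosome biogenesis genes, 25 rose in KO and 2 fell, with a median log2 change of 0.34. Rrs1, needed for 5S particle assembly, rose by 1.72 ± 0.14 (SE, adjusted p = 1.2e-06) and Nop2, a ribosomal RNA methyltransferase, by 1.53 ± 0.12 (adjusted p = 1.2e-06), while Taf1d (-0.51) and Nmd3 (-0.29) fell on the same scale. Of 34 translation factors 6 rose, led by Eef2 (0.96) and Eif3b (0.52), and 6 fell, led by Eif4a2 (-0.53) and Eif3m (-0.48), so their 12 calls of 34 are a smaller share than the 53.6% of all genes. Of 22 genes of TOR and MYC regulation 6 rose, led by Max (0.93) and Mycn (0.81), and 3 fell, led by Mycl (-0.98) and Mlst8 (-0.61). Of 14 genes on a list for the quality control of ribosomes and their proteins 3 rose, led by Ube2o (1.08) and Pdcd2l (0.39), and Usp16 fell (-0.68). Calls on these last lists, 9 of 22 and 4 of 14, were also a smaller share than that of all genes. In the ladder against the standard libraries the biogenesis genes had 9 higher and 27 lower of 45, with a median of -0.48, where 30.8% and 30.3% of all genes were.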

How the data were processed

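Estimated counts and TPM per transcript were deposited by the authors for 11 short-read libraries. The submitters' processing notes name STAR 2.5.4b, StringTie, kallisto and minimap2 2.17 and the builds GRCm38 and mm10, without their roles. Long-read TPM are StringTie values in the authors' deposited assemblies, 1 per genotype and chemistry, and were given to genes by annotated introns.

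Estimated counts were summed per GENCODE M21 gene, rounded, filtered with filterByExpr, TMM-scaled and tested with edgeR 4.0.16 (quasi-likelihood, Benjamini-Hochberg, threshold 0.05) over all genes in R 4.3.3. Ladder and standard libraries were compared over the transcripts they share. limma 3.58.1 on log2(TPM + 1) and DESeq2 1.42.0 were alternatives. Long-read fold changes used TPM + 1 (native) and TPM + 0.1 (cDNA). Near-identical copies were pseudogenes aligned by BLAST 2.17.0 at 90% identity over 80% of their length.

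On simulated counts edgeR recovered 78% of 2-fold and 100% of 4-fold changes for the genotypes, over 18351 genes, and 69% and 100% for the library types, over 15750 genes. In each simulation 200 genes were changed, none of them of low count, and every gene had the same dispersion. The real data differ in these points, so recovery there may differ. Changes under 2-fold, as in most members between the genotypes, were not simulated.

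The members and lists were chosen with earlier results of these data known. Named were up to 4 non-overlapping calls per direction and subunit, the extremes of level, paralogs, 6 transcript-usage calls, the largest rank differences from native reads, and 2 genes per direction of each list. Other named genes, such as Rps26, Rpl12, Rps15a and Rpl11, were chosen after their values were seen. Protein sequences were not used here. Values of 1 member and 1 listed gene are not reported here, and the figures leave that member out.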

Additional observations from a re-analysis of the deposited data

Results flagged for a closer look

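Within the groups of 4 ladder libraries, 76 sets of values were checked for a library far from the other 3, and 2 passed the 95% critical value of Dixon's test. Chance gives about 1 in 20. Rpl10 was 168 CPM in WT ladder replicate 1 and 103, 110 and 114 CPM in the other WT ladder libraries. Rpl3 was 12.7 CPM in WT ladder replicate 1 and 13.9 CPM in each of the others.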

How the results depend on the processing

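For the genotypes, leaving out 1 library at a time gave 1 to 12 large subunit genes higher and 4 to 6 lower (median log2 change -0.02 to 0.29), and 1 to 6 small subunit genes higher and 1 to 3 lower (0.03 to 0.26). With all 3 groups in one fit, 3 large and 2 small subunit genes were higher and 0 small ones lower, where the same tool gave 1 in the fit of the genotypes alone. At an average log2 CPM of 1 or more, 1 large and 1 small were higher and 2 small lower. On TPM 2 large were lower, with named pseudogenes added 2 large were lower, and on coding transcripts 2 large were higher. Replicate numbers did not pair the samples, since same-numbered libraries correlated at -0.0415 to 0.0866 for the genotypes and -0.0548 to 0.131 for the library types. Some differently numbered ladder libraries correlated more. KO 1 and WT 2 gave 0.552, KO 3 and WT 4 0.451, KO 4 and WT 3 0.261, and KO 2 and WT 1 0.226. Others ran down to -0.45. Whether such libraries shared a batch was not tested. With a block on the replicate number 2 small subunit genes were lower. Rps6 was 1.53 with named pseudogenes and 1.50 with copies, and Rpl5 -0.30 with copies. Of 13 named calls 3 held under every alternative run. Transcript usage called 28 members by the F test, 7 at the higher filter and 6 to 10 without 1 library.

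For the library types, leaving out 1 library gave 38 to 39 large subunit genes higher and 5 to 7 lower (1.71 to 1.97), and 27 small higher and 6 lower (1.87 to 2.08). On TPM 15 large were higher and 10 lower (0.32), 12 small were higher (0.33), and Rpl7 (-0.36), Rpl22l1 (-0.52) and Rpl6 (-0.015) changed sign. By library totals the medians were 1.59 and 1.71. Over all annotated targets Rpl10a was 0.34. With named pseudogenes 2 large were lower, and Rpl31 was 0.56, Rps12 2.31, Rps23 0.12, Rpl10a 1.47 and Rpl10 1.69. With copies 1 large was lower, and Rpl31 was 0.57, Rpl5 1.78, Rps23 0.13 and Rpl10a 1.47. On coding transcripts Rpl23 was -0.48. Of 36 named calls 15 held under every alternative run.

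Of protein-coding counts the large subunit took 5.59% (WT ladder) and 5.71% (KO ladder), the small 4.24% and 4.37%. Of TPM the large took 7.11%, 8.46% and 5.67% (standard), the small 5.33%, 6.38% and 4.33%. By exon overlap the native KO small subunit median was 2454 TPM. The cause of these changes was not tested. At 0 to 15 counts a library, no genotype difference was testable for Rpl10l, Rpl39l and Rpl3l.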
